A study of Mus musculus with 79 samples.

Results

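The 9 microglia markers described here are Cx3cr1, P2ry12, Tmem119, Csf1r, Trem2, C1qa, C1qb, C1qc and Itgam. They were chosen by symbol, and each was matched to 1 Ensembl identifier in the table of raw counts, which makes 9 of 55471 genes. Their levels were followed in bulk RNA sequencing of the medial prefrontal cortex (mPFC) and the ventral hippocampus (vHipp) of 40 mice, in 79 libraries.

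All mice were wild-type CD-1 (ICR) males, an outbred strain, aged 9 to 10 weeks, and all lived in groups of 4. Mice under chronic social defeat stress (CSDS) met an aggressor on each of 21 days and went back to their own group afterwards, whereas control mice (CTRL) did not. After 4 days in the social box, an arena in which a group is tracked by video, each mouse received a single intraperitoneal injection of saline or of (R,S)-ketamine at 10 mg/kg. Brains were collected 7 days later and each region was taken as punches of 1 mm, so a library holds the RNA of all cell types in the punch. There were 10 mice in each of the CTRL saline, CTRL ketamine, CSDS saline and CSDS ketamine groups, and each gave a library of both regions, apart from mouse 5 (CSDS ketamine), whose mPFC was not analysed here. Whole housing groups were exposed to CSDS or kept as controls, so the 4 mice of a housing group shared the stress condition. The labels do not tie a mouse to its housing group, and the tests of edgeR and DESeq2 took the mice as independent samples. Their stress p-values take no account of the shared housing. Social rank was not used as a group. Total counts per library ranged from 11726129 to 41767119, with a median of 19638060.

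In the GRCm38 annotation, the C1q genes lie side by side on the minus strand of chromosome 4, with C1qb at 136880129 to 136886187, C1qc at 136889804 to 136893065 and C1qa at 136895917 to 136898803. Cx3cr1 (119901616 to 120069879 on chromosome 9), P2ry12 (59216272 to 59262871 on chromosome 3) and Tmem119 (113793729 to 113800516 on chromosome 5) are also on the minus strand. Csf1r (61100598 to 61132149 on chromosome 18), Trem2 (48346401 to 48354147 on chromosome 17) and Itgam (128062640 to 128118491 on chromosome 7) are on the plus strand. Of the 5024 exonic bases of Itgam, 3450 are shared with the overlapping gene model Gm49368 on the same strand, so reads of Itgam could have been left unassigned and its level is uncertain. Over all libraries Gm49368 had 5 counts and Itgam 9944. Csf1r shares 873 exonic bases with Hmgxb3 on the opposite strand, and the sources used here do not state whether counting used the strand.

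Microglia are the resident macrophages of the brain parenchyma. They enter the brain from the yolk sac during embryonic life, renew themselves locally and depend on signals from their neighbors: neurons and astrocytes supply growth factors, chemokines, nucleotides and lipoproteins that microglia read through surface receptors. They take up debris and synaptic material, partly after tagging by complement, and their transcripts are often followed in studies of chronic stress.

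The markers fall into groups by role. Cx3cr1 is the receptor for fractalkine (Cx3cl1), a chemokine made by neurons, and P2ry12 is a purinergic receptor that senses ADP and directs microglial processes. Csf1r is the receptor for the growth factors Csf1 and Il34, on which microglia depend for survival. Trem2 is a lipid and lipoprotein receptor that signals through Tyrobp, and Itgam encodes CD11b, the alpha chain of complement receptor 3. Tmem119 is a membrane protein much used to set microglia apart from other macrophages. C1qa, C1qb and C1qc encode the chains of C1q, the recognition molecule of the classical complement pathway. Csf1r, Itgam, Cx3cr1, Trem2 and C1q are also expressed by other macrophages or by blood myeloid cells.

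The 250 bases before the RefSeq start of the gene (GRCm38.p6) are shown for 4 markers, since the markers moved together across libraries as described further on. Capitals mark the letters GAGGAA or their reverse complement TTCCTC, the core that the myeloid transcription factor PU.1 is known to read. Each sequence runs 5′ to 3′ on the strand of the gene.
C1qb (chr4:136886201-136886450, minus strand): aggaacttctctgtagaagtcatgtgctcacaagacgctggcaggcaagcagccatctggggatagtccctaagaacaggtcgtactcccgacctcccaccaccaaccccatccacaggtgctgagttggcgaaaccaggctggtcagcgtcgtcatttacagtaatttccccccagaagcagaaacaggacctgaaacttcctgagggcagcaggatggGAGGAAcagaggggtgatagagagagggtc
Itgam (chr7:128062390-128062639, plus strand): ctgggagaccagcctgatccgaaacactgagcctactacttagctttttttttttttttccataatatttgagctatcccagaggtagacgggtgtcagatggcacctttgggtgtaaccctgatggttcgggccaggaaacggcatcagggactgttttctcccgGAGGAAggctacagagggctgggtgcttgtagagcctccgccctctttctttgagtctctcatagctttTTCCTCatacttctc
Trem2 (chr17:48346151-48346400, plus strand): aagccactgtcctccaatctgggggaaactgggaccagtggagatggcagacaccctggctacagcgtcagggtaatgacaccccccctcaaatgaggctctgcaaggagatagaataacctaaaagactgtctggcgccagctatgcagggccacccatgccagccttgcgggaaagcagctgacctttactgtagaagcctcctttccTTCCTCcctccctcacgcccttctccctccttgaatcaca
P2ry12 (chr3:59262986-59263235, minus strand): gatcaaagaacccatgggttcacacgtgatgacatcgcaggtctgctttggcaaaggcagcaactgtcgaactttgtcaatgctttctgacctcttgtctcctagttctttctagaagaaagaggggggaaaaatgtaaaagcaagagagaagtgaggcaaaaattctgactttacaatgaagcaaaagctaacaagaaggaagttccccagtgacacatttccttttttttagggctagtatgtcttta
The match began 30 bases before the start in C1qb and 40 bases before it in Trem2, and Itgam had matches at 84 and 15 bases. Among the 6 markers whose window was searched, 4 held at least 1 of the 2 strings (C1qc was the other), while P2ry12 and Cx3cr1 held neither. Both strings were searched on the printed strand, and 23.3% of the 32851 promoter windows of this length held a match. A match describes letters only, and no match says nothing of the factor. A part of PU.1 in the joint movement of the markers was not tested.

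All 9 markers were detected in every library, and C1qa and C1qb led by level per length. Per kilobase of exon, C1qa had the highest mean level, 30.6 ± 6.48 CPM (the count relative to the library total, after TMM scaling between libraries) per kilobase in the mPFC (SD, n = 39) and 27.6 ± 6.78 in the vHipp (SD, n = 40). C1qb followed with 17.2 ± 3.52 in the mPFC and 14.7 ± 4.27 in the vHipp. Csf1r, P2ry12, Cx3cr1, C1qc and Tmem119 formed a middle group, from 8.25 to 14.3 CPM per kilobase in the mPFC and from 8.02 to 13.4 in the vHipp, and kept this order in both regions. Neighbors in it differed by less than the SD of at least 1 of them, apart from C1qc (10.6 ± 2.16) and Tmem119 (8.25 ± 1.87) in the mPFC. At the low end, Trem2 stood at 1.48 ± 0.291 in the mPFC and 1.33 ± 0.436 in the vHipp, and Itgam at 1.22 ± 0.206 and 1.25 ± 0.378. Trem2 and Itgam did not differ beyond their spread, though the level of Itgam per kilobase is uncertain because of the exonic bases shared with Gm49368.

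The depth behind the markers varied with their level. The lowest count of any marker in any library was 58 reads, for Itgam in the mPFC. In the median library, counting alone would give Itgam a coefficient of variation of 9.05% in the mPFC and 9.07% in the vHipp. Between mice of a group, where punches and library preparation also differ, it was 16.9% and 23.0%. For Csf1r the corresponding values were 2.50% and 2.62% from counting and 14.2% and 20.7% between mice.

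Markers of other cells of the punch were present at very different levels. Sall1, a transcription factor of microglia, averaged 27.0 CPM in the mPFC. Mrc1 and Cd163, markers of the macrophages of brain borders, averaged 6.17 and 2.28 CPM in the mPFC and 2.46 and 1.02 CPM in the vHipp. Ccr2, a marker of monocytes, averaged 0.347 CPM in the mPFC and 0.0931 CPM in the vHipp, where 10 of 40 libraries were at 0, so genes that define blood monocytes were near 0. Cst7, a marker of activated microglia, was at 0 in 17 of 39 mPFC libraries and in 20 of 40 vHipp libraries. Lpl, the next gene of the same list, averaged 30.2 CPM in the mPFC and 160 CPM in the vHipp and was at 0 in no library.

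**Figure D1:**
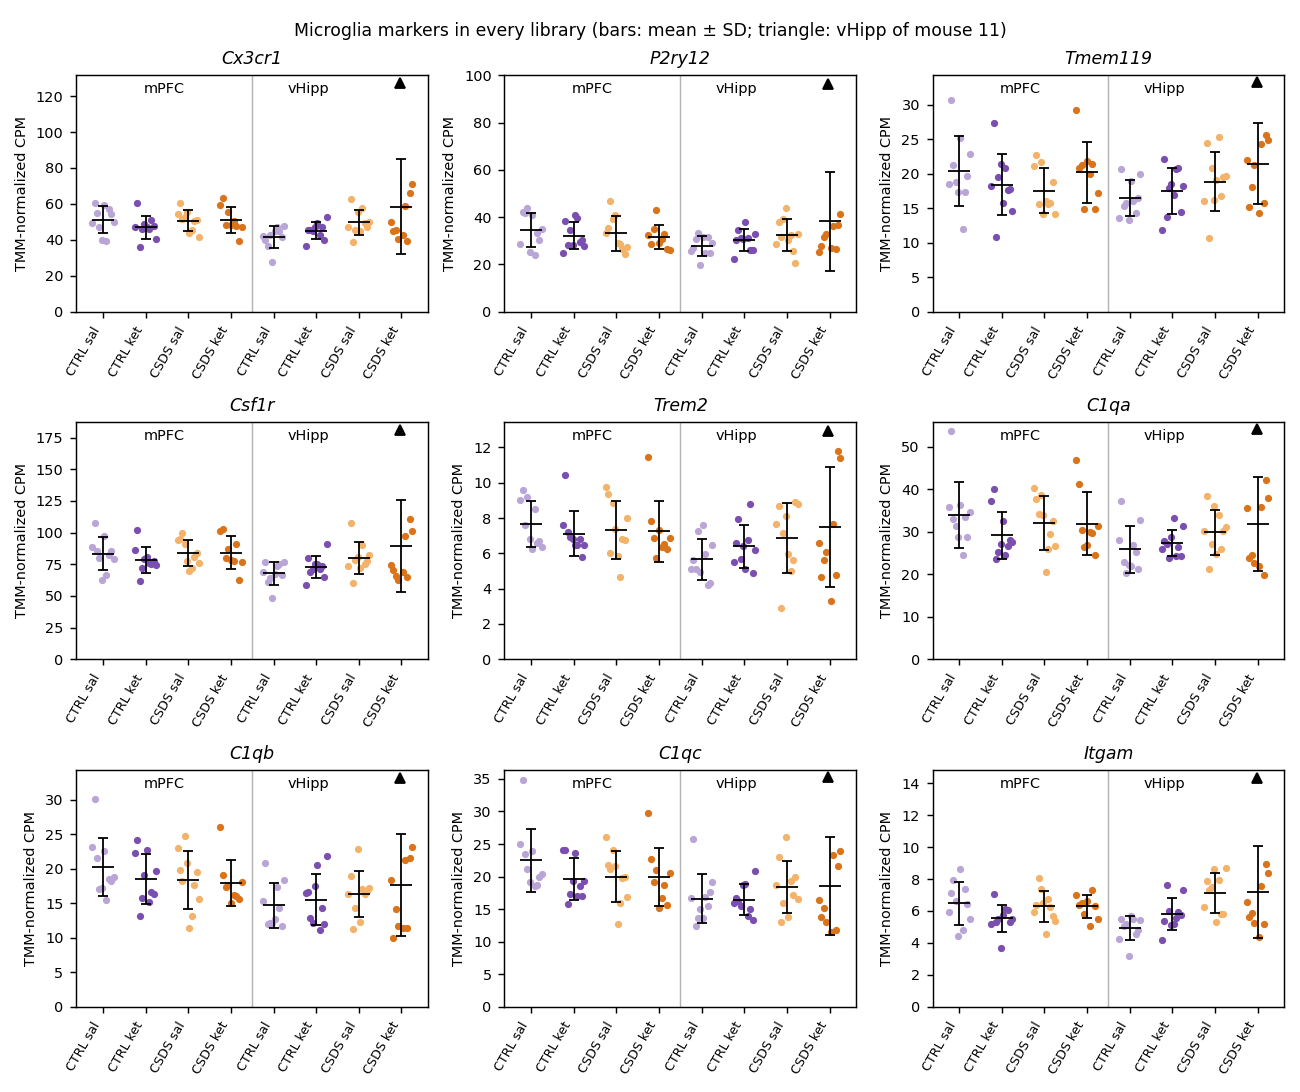
Level of each microglia marker in every library, in TMM-normalized CPM (y axis), by region, stress group and treatment (x axis). Points are mice, bars are mean ± SD, and the black triangle is the vHipp of mouse 11, which had 127.1 CPM of Cx3cr1 where the next mouse of its group had 70.9.

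One vHipp library stood apart. In the vHipp of mouse 11 (CSDS ketamine), P2ry12 reached 96.3 CPM and Csf1r 181 CPM, where the next highest mice of the group had 41.4 and 110.7 CPM. All 9 markers were highest in this library among the 10 of its group, and the sum of the markers was 587 CPM, against 166 to 345 CPM in the other 39 vHipp libraries. The mPFC of mouse 11 did not share this for Cx3cr1 (55.7 CPM) and Csf1r (87.02 CPM). For P2ry12 its mPFC was the highest of the group, at 42.8 CPM where the next mouse had 35.1 CPM.

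Other cell types moved with the markers in that library. The summed astrocyte list (7 genes) stood at 12909 CPM, against a highest value of 7562 in the other libraries, and Aqp4, the water channel of astrocytes, at 501 CPM against at most 221. Endothelial and pericyte genes summed to 378 CPM, against at most 273 elsewhere. The 6 neuronal genes summed to 5912 CPM, within the range of the others at 4939 to 8526 CPM. Among them Rbfox3, at 182 CPM, was below the lowest of the others (228), and Snap25, at 1642 CPM, was just above it (1631). Oligodendrocyte precursor genes summed to 257 CPM, against at most 184 elsewhere. Border macrophage genes were highest there as well, at 36.8 CPM against at most 30.0, while Ccr2 was at 0. Its depth, 13659739 counts, was within the range of the others. The part of tissue composition in this library's values was not tested. The vHipp stress effect over both treatments is given for all 9 markers with and without this library.

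Stress was the first question of the design, and in the vHipp all 9 markers had a positive difference between CSDS and CTRL mice. Taken over both treatments, the log2 fold change (LFC) of the markers lay between 0.17 and 0.43 with a median of 0.26, where the median over all 28991 genes tested was -0.0025. No marker passed the quasi-likelihood test of edgeR, Benjamini-Hochberg adjusted, at 0.05, which called 0 of 28991 genes (0%). At an unadjusted p under 0.05, 6 of 9 markers were higher, beside 1539 genes of all those tested (5.31%). With limma-voom, in which each 4 consecutive mouse numbers shared a random effect, 0 markers passed after adjustment (smallest adjusted p 0.813) and 4 were higher before it, beside 3.37% of genes. DESeq2 gave 7 before adjustment, beside 5.16% of genes, and its independent filtering left all 9 markers without an adjusted p. Neither edgeR nor DESeq2 took account here of the housing groups to which stress was assigned.

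Itgam showed the largest difference. In the vHipp of the 20 CTRL mice it ranged from 3.19 to 7.64 CPM with a median of 5.39, and in the 20 CSDS mice from 4.36 to 14.3 CPM with a median of 6.94. The ranges overlapped, yet 16 of 20 CSDS mice lay above the CTRL median and 7 above every CTRL mouse. The LFC was 0.43 ± 0.10 (SE), with an unadjusted p of 0.000126, the rank of 8 among all genes, and an adjusted p of 0.323 by the quasi-likelihood test of edgeR, Benjamini-Hochberg adjusted. Without mouse 11 the LFC was 0.36 ± 0.09, with an unadjusted p of 0.000197 and an adjusted p of 0.482 by the same test.

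Both receptors for signals from neurons had higher medians in CSDS mice. Cx3cr1 ranged from 27.7 to 52.6 CPM in CTRL mice (median 45.0) and from 38.9 to 127.1 CPM in CSDS mice (median 48.2), with 14 of 20 CSDS mice above the CTRL median. Its LFC was 0.33 ± 0.09 (unadjusted p = 0.00128, edgeR, adjusted p = 0.323), and 0.23 ± 0.07 without mouse 11 (unadjusted p = 0.00195, edgeR). P2ry12 ranged from 19.9 to 37.8 CPM in CTRL mice (median 30.5) and from 20.6 to 96.3 CPM in CSDS mice (median 32.1). The ranges of P2ry12 overlapped, and 5 of 20 CSDS mice, mouse 11 among them, lay above every CTRL mouse. Its LFC was 0.28 ± 0.11 (unadjusted p = 0.0164, edgeR, adjusted p = 0.412), and without mouse 11 it was 0.16 ± 0.08 at an unadjusted p of 0.0512 (edgeR).

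Csf1r, the growth factor receptor, ranged from 48.0 to 91.01 CPM in CTRL mice (median 71.2) and from 60.1 to 181 CPM in CSDS mice (median 76.4). Its LFC was 0.28 ± 0.09 (unadjusted p = 0.00392, edgeR, adjusted p = 0.345), and 0.20 ± 0.07 without mouse 11 (unadjusted p = 0.00925, edgeR). Tmem119 ranged from 11.9 to 22.1 CPM in CTRL mice (median 16.7) and from 10.7 to 33.2 CPM in CSDS mice (median 19.6), with an LFC of 0.26 ± 0.09 (unadjusted p = 0.00964, edgeR, adjusted p = 0.385) and of 0.22 ± 0.09 without mouse 11 (unadjusted p = 0.0228, edgeR). For both, 14 of 20 CSDS mice were above the CTRL median. Trem2 ranged from 2.88 to 12.9 CPM in CSDS mice (median 6.87), on both sides of the CTRL mice at 4.20 to 8.79 CPM (median 5.82). Its LFC was 0.26 ± 0.13 (unadjusted p = 0.0528, edgeR, adjusted p = 0.518), and 0.21 ± 0.13 without mouse 11 (unadjusted p = 0.108, edgeR).

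Each chain of C1q also had a higher median in CSDS mice. C1qa ranged from 20.4 to 37.2 CPM in CTRL mice (median 26.2) and from 19.9 to 54.1 CPM in CSDS mice (median 30.1), with an LFC of 0.23 ± 0.10 (unadjusted p = 0.0231, edgeR, adjusted p = 0.436). C1qb had medians of 14.2 CPM in CTRL and 16.5 CPM in CSDS mice and an LFC of 0.18 ± 0.12 (unadjusted p = 0.137). C1qc had medians of 16.0 and 16.9 CPM and an LFC of 0.17 ± 0.11 (unadjusted p = 0.128). Without mouse 11, C1qa was no longer under an unadjusted p of 0.05, with an LFC of 0.17 ± 0.09 (unadjusted p = 0.0574, edgeR). C1qb and C1qc then had LFCs of 0.11 ± 0.11 and 0.10 ± 0.10 (unadjusted p of 0.312 and 0.311, edgeR). The CSDS mice with the lowest C1qb and C1qc, at 9.94 and 11.4 CPM, were below every CTRL mouse.

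**Figure D2:**
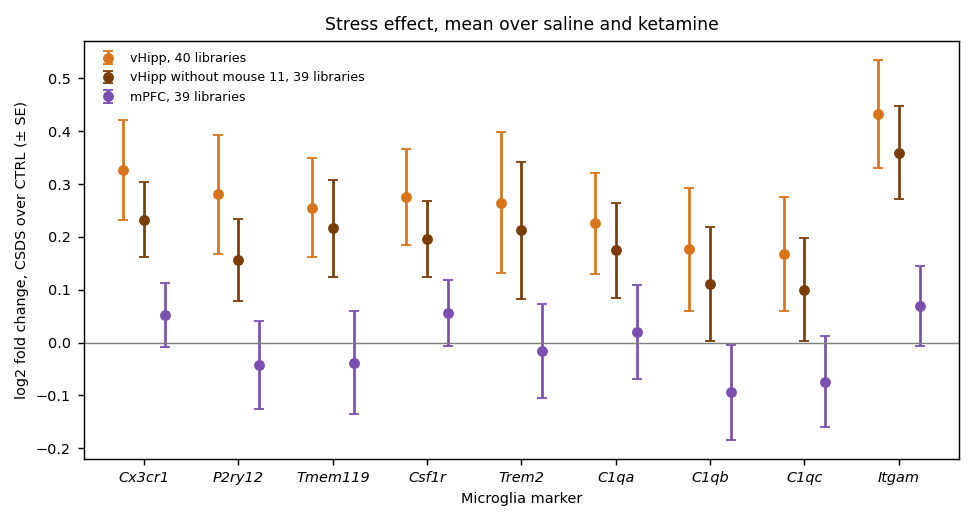
Stress effect on each microglia marker, as the log2 fold change of CSDS over CTRL mice averaged over both treatments (y axis, ± SE), in the vHipp with and without mouse 11 and in the mPFC. All 9 vHipp values lie above 0, from 0.17 to 0.43, and the mPFC values lie between -0.09 and 0.07.

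Split by treatment, the vHipp gave positive LFCs for all 9 markers both with saline (0.16 to 0.55, median 0.23) and with ketamine (0.17 to 0.38, median 0.30). In saline-treated mice, Itgam ranged from 3.19 to 5.68 CPM in CTRL mice (median 5.11, n = 10) and from 5.31 to 8.71 CPM in CSDS mice (median 7.42, n = 10). These groups of Itgam values overlapped only between 5.31 and 5.68 CPM. The LFC was 0.55 ± 0.15, with an unadjusted p of 0.000468 and an adjusted p of 0.762 by the quasi-likelihood test of edgeR, Benjamini-Hochberg adjusted. In these mice 2 markers, Itgam and Cx3cr1, had an unadjusted p under 0.05 and a higher level, beside 3.07% of all genes, and 0 passed after adjustment.

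With ketamine, 5 markers (Cx3cr1, Csf1r, Tmem119, Itgam and P2ry12) were higher at an unadjusted p under 0.05, beside 2.81% of all genes, and 0 passed after adjustment. DESeq2 also gave 5 before adjustment, beside 2.56% of genes, and limma-voom gave 1, beside 1.88%, with 0 after adjustment in both. This count rested on the library of mouse 11. Without it, 0 markers were higher at an unadjusted p under 0.05, beside 1.97% of all genes, and the median LFC was 0.12. For Cx3cr1 the LFC without that mouse was 0.19 ± 0.10 (unadjusted p = 0.0700, edgeR). In saline-treated mice, 4 markers were instead higher at an unadjusted p under 0.05 without mouse 11, beside 3.69% of all genes. All groups of a region share 1 estimate of the spread in this fit.

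The interaction, the stress effect with ketamine minus that with saline, was between -0.24 and 0.10 in the vHipp, the smallest unadjusted p of a marker was 0.253, and 0 markers passed (edgeR, 0% of genes after adjustment, 2.84% before it). DESeq2 and limma-voom also gave 0 before and after adjustment. Without mouse 11 the values lay between -0.39 and -0.00095. Itgam then had a lower value at an unadjusted p under 0.05 (-0.39 ± 0.18, unadjusted p = 0.0327, edgeR, adjusted p = 1.00), beside 432 of 28918 genes, and 0 markers passed after adjustment.

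In the mPFC the markers lay on both sides of 0. Averaged over treatments, the LFCs of stress lay between -0.09 (C1qb) and 0.07 (Itgam) with 4 of 9 above 0. By edgeR 0 markers passed after adjustment and 0 at an unadjusted p under 0.05, beside 0% and 3.52% of 28993 genes, and DESeq2 and limma-voom also gave 0 in both. Itgam in the mPFC ranged from 3.69 to 8.62 CPM in CTRL mice (median 5.84) and from 4.59 to 8.06 CPM in CSDS mice (median 6.38). Cx3cr1 had medians of 48.1 CPM in CTRL and 50.3 CPM in CSDS mice. No CSDS mouse lay above the highest CTRL mouse for Itgam, and 1 did for Cx3cr1.

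Within treatments, the mPFC gave LFCs of -0.22 to 0.00 with saline and -0.04 to 0.18 with ketamine. No marker had an unadjusted p under 0.05 in either comparison or in the mPFC interaction, beside 2.94%, 5.8% and 5.31% of all genes, and 0 passed after adjustment by edgeR, DESeq2 or limma-voom.

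The difference between the regions was tested directly, in a fit that took both regions of a mouse as independent samples. Subtracting the vHipp stress effect from the mPFC one gave a negative value for all 9 markers, between -0.35 and -0.20. At an unadjusted p under 0.05, 4 markers had a lower value (Itgam, Cx3cr1, P2ry12 and Tmem119), beside 3.33% of 31534 genes, and 0 passed after adjustment, where edgeR called 0% of genes. DESeq2 also gave 4 and 0, beside 2.76% of genes before adjustment. Itgam had the largest difference, -0.35 ± 0.13 with an unadjusted p of 0.00830 and an adjusted p of 0.652 by the quasi-likelihood test of edgeR, Benjamini-Hochberg adjusted. Without the vHipp library of mouse 11, only Itgam kept an unadjusted p under 0.05 by edgeR (-0.27 ± 0.12, unadjusted p = 0.0203, adjusted p = 0.783), beside 851 of 31505 genes that were lower. After adjustment, the regions were not shown to differ in the stress effect.

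Libraries carry consecutive numbers that follow the mice in 5 sets, each of 4 CSDS and 4 CTRL mice, which allowed the vHipp difference to be looked at within sets. Within sets, 7, 7, 9, 8 and 9 of the 9 markers had a higher mean log2 CPM in CSDS than in CTRL mice. Cx3cr1, P2ry12, Tmem119, Csf1r, C1qa and Itgam were higher in 5 of 5 sets, C1qb in 4, and Trem2 and C1qc in 3. Itgam differed by 0.12 to 0.64 on the log2 scale. In the second set the median difference over markers was only 0.02, and in the fifth it was 0.35. The third set holds the vHipp library of mouse 11, and the counts within sets were not taken without that library. Without the third set, the median LFC of the markers for the mean stress effect was 0.20, where it was 0.26 with all sets. With the set as a covariate, 6 markers were higher at an unadjusted p under 0.05, beside 5.73% of genes, and 0 after adjustment. In the mPFC 6, 8, 3, 5 and 2 markers were higher within the sets. For the difference between the regions in the stress effect, the 4 markers at an unadjusted p under 0.05 became 1 without the third or the fifth set, 9 without the second and 2 without the 2 vHipp libraries of highest Ttr, a choroid plexus gene, beside 3.24%, 2.56%, 4.5% and 2.97% of genes.

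The second question was the response to ketamine, and no marker passed for it after adjustment. In CTRL mice all 9 markers had negative LFCs of ketamine over saline in the mPFC, from -0.22 to -0.09, and 1 marker, Itgam, passed an unadjusted p under 0.05 in that direction (-0.22, unadjusted p = 0.0442), beside 1.9% of all genes. Itgam went from a median of 6.54 CPM (4.45 to 8.62) with saline to 5.49 CPM (3.69 to 7.05) with ketamine, and the groups overlapped over most of their range. The adjusted p was 0.997 by the quasi-likelihood test of edgeR, Benjamini-Hochberg adjusted. In CTRL mice the vHipp values were -0.01 to 0.24, and in CSDS mice the LFCs were -0.06 to 0.21 in the mPFC and -0.0010 to 0.22 in the vHipp. Without mouse 11 the vHipp values in CSDS mice were -0.15 to 0.09, with 3 of 9 above 0 in place of 7, and no marker had an unadjusted p under 0.05 by edgeR. No marker passed in these comparisons before or after adjustment, beside 2.88%, 4.32% and 2.9% of all genes before it and 0% after it. DESeq2 gave the same counts, and limma-voom gave 0 throughout.

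Averaged over CTRL and CSDS mice, the ketamine LFCs were -0.11 to 0.03 in the mPFC and -0.01 to 0.17 in the vHipp, or -0.08 to 0.09 in the vHipp without mouse 11. Neither region had a marker with an unadjusted p under 0.05, beside 3.07% and 3.39% of all genes, and 0 passed after adjustment. Nor did a marker pass when the vHipp ketamine effect was subtracted from the mPFC one, which gave -0.26 to -0.10, beside 3.46% of 31534 genes before adjustment. Without mouse 11 it gave -0.16 to -0.03.

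The regions themselves were compared at rest, in CTRL saline mice, where all 9 markers had a higher level in the mPFC. Their LFCs, mPFC over vHipp, lay between 0.30 and 0.47, and 7 of 9 passed the quasi-likelihood test of edgeR, Benjamini-Hochberg adjusted, beside 14.4% of 31534 genes that were higher in the mPFC. All 9 had an unadjusted p under 0.05, beside 18.5% of genes. C1qb ranged from 15.5 to 30.0 CPM in the mPFC (median 18.6) and from 11.7 to 20.8 CPM in the vHipp (median 13.5), with an LFC of 0.47 ± 0.15 (adjusted p = 0.0116 by edgeR with Benjamini-Hochberg adjustment). C1qc, Itgam, C1qa, Trem2, Csf1r and Cx3cr1 also passed, at LFCs of 0.44, 0.40, 0.40, 0.44, 0.30 and 0.30. P2ry12 and Tmem119, at 0.31 each, had adjusted p-values of 0.09995 and 0.0810 by the same test. With the mouse as a block, which pairs the regions of each mouse, 8 passed, beside 15.2% of genes.

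The mPFC values of CTRL saline mice included 1 high library. Mouse 24 had 30.0 CPM of C1qb, 53.6 CPM of C1qa and 34.8 CPM of C1qc in the mPFC, where the next mice had 23.1, 36.2 and 25.0 CPM. Without its mPFC library 2 markers passed after adjustment in place of 7, beside 13.6% of genes, and without the vHipp of mouse 29, the lowest for Cx3cr1, Csf1r, P2ry12, Tmem119 and Itgam, 4 passed, beside 13.8%. Leaving out the first or the second set left 4 or 1, beside 13.1% and 12.4%.

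Averaged over the 4 groups, the regional difference was smaller. This average includes the vHipp library of mouse 11 and was not refitted without that library alone. The LFCs were -0.0037 (Itgam) to 0.23 (C1qb and C1qc), and only C1qb and C1qc passed the quasi-likelihood test of edgeR, Benjamini-Hochberg adjusted (adjusted p of 0.00768 and 0.00417), beside 24.5% of genes that were higher in the mPFC. At an unadjusted p under 0.05, 4 markers were higher, beside 26.6% of genes. With the mouse as a block 4 passed after adjustment, beside 24.3% of genes, and without the first or the second set 0 did, beside 23.2% and 23.1%. DESeq2 called 3, beside 23.2% of genes. The mean level of Itgam over all libraries was 6.14 ± 1.04 CPM in the mPFC and 6.26 ± 1.90 CPM in the vHipp (SD, n = 39 and 40). The vHipp mean includes mouse 11 at 14.3 CPM, and the medians were 6.12 CPM in the mPFC and 5.71 CPM in the vHipp. The direction of Itgam between regions was not stable. Its value was just above 0 with DESeq2's size factors, with no filter and with the mouse as a block. It was also above 0 without the third or the fifth set.

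Genes of border cells had larger regional values than the markers. Of the 10 border macrophage genes, 9 were higher in the mPFC of CTRL saline mice after adjustment (edgeR), beside 14.4% of 31534 genes, with Lyve1 (1.47) and Mrc1 (1.40) among the largest. Among monocyte and neutrophil genes 6 of 9 were higher, at a summed level of only 1.97 ± 1.15 CPM in the mPFC and 0.750 ± 0.506 CPM in the vHipp (SD, n = 10), and among meningeal fibroblast genes 5 of 6, with Col1a2 at 1.75. Of 22 other homeostatic microglia genes, 7 were higher and 1 lower, among them Olfml3 (0.50) and Lgmn (0.45) as higher and Sparc (-0.91) as lower. Sparc is also made by astrocytes and endothelial cells. The part of border cells in the regional difference of Csf1r, Itgam and C1q was not tested.

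Other genes of the microglial pathways were counted over lists. Of 22 homeostatic microglia genes, 21 had a positive LFC of stress in the vHipp (median 0.26) and 13 were higher at an unadjusted p under 0.05, beside 5.31% of all genes. Sall1 had an LFC of 0.16 ± 0.09, at an unadjusted p of 0.0918 (edgeR). Of 19 genes of microglial signalling that were tested, 15 were positive (median 0.26) and 9 were higher at an unadjusted p under 0.05, with Tyrobp, the adaptor of Trem2, at 0.29 ± 0.12. No gene of any list passed after adjustment by edgeR. Without mouse 11, 9 of 22 and 7 of 19 were higher at an unadjusted p under 0.05, with medians of 0.18 and 0.17, beside 4.49% of all genes.

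Genes of activated or disease-associated microglia had a smaller median, 0.10 over 32 genes with 3 higher at an unadjusted p under 0.05, where 5.31% of all genes were higher and 4.4% lower. The other genes of the complement cascade, 26 tested, had a median of -0.01 with 2 higher and 1 lower. Border macrophage genes (10) had a median of 0.05 with 0 higher or lower at an unadjusted p under 0.05 by edgeR. Without mouse 11 the medians of these lists were 0.07, -0.04 and -0.04, with 2, 2 and 0 genes higher and 0 lower at an unadjusted p under 0.05.

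Genes of some other cell types had positive values in the vHipp as well. All 7 astrocyte genes had a positive LFC (median 0.22, 5 at an unadjusted p under 0.05), as did all 7 endothelial and pericyte genes (median 0.27, 6 at an unadjusted p under 0.05), beside 5.31% of all genes that were higher. The summed astrocyte genes ranged from 4062 to 6265 CPM in CTRL mice (median 4996) and from 4032 to 12909 CPM in CSDS mice (median 5399). Without mouse 11 the counts were 3 of 7 and 4 of 7, beside 4.49% of all genes, with medians of 0.14 and 0.20. All 5 erythroid genes (median 0.26) and all 4 oligodendrocyte precursor genes (median 0.13) were then also positive. In each of these lists, 1 gene was higher at an unadjusted p under 0.05 by edgeR. Oligodendrocyte, meningeal fibroblast and striatal genes had medians of -0.02, -0.20 and -0.07 without mouse 11. With all libraries, the 6 neuronal genes had a median of 0.02. Choroid plexus genes, which mark the tissue of the ventricles, had the largest median, 1.17, with 4 of 6 at an unadjusted p under 0.05, and Ttr reached 645 CPM in 1 library. Their sum ranged from 15.8 to 34.1 CPM in CTRL mice (median 25.0) and from 19.6 to 704 CPM in CSDS mice (median 26.6). Without the 2 libraries of highest Ttr the median LFC was 0.19, with 0 of 6 at an unadjusted p under 0.05 by edgeR, and that of the microglia markers was 0.25. In these punches fewer cells of a type and less RNA per cell cannot be told apart, and the part of the other cell types in the stress difference of the markers was not tested.

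**Figure D3:**
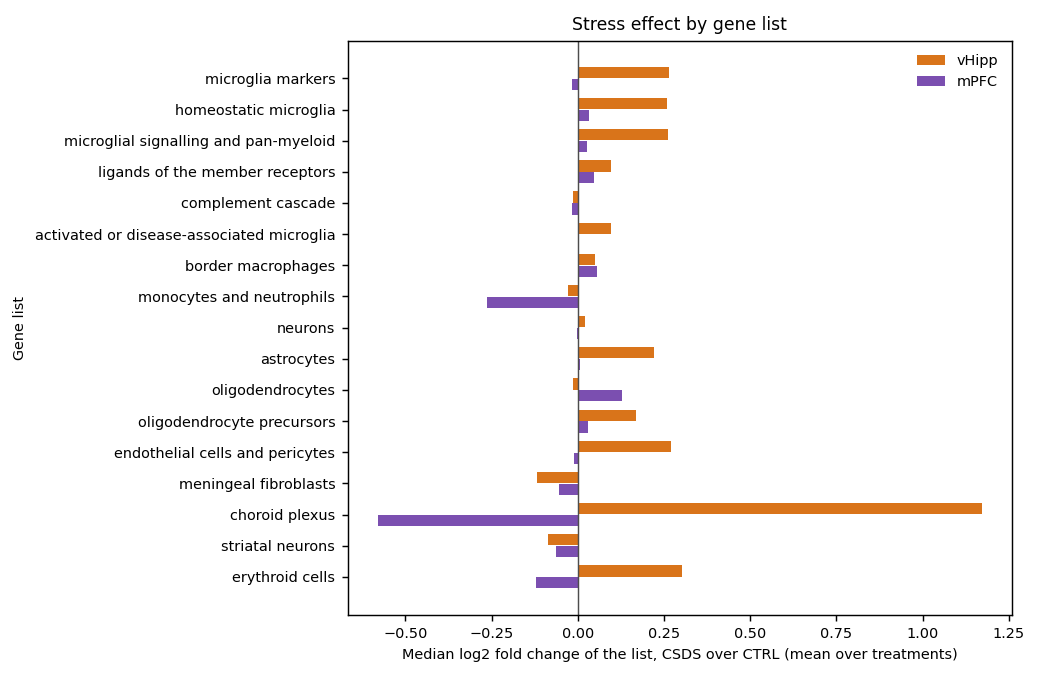
Median log2 fold change of stress (x axis, CSDS over CTRL mice, averaged over treatments) for each gene list (y axis), in both regions. In the vHipp the microglia markers have 0.26, endothelial and pericyte genes 0.27 and astrocyte genes 0.22, and neuronal genes have 0.02.

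A list of 7 genes held ligands of the marker receptors and Tgfb1. Cx3cl1, the ligand of Cx3cr1, averaged 667 ± 61.0 CPM in the mPFC and 499 ± 43.5 CPM in the vHipp (SD), and was higher in the mPFC after adjustment, with an LFC of 0.42 ± 0.03 over the groups (edgeR, adjusted p = 9.15e-21). Il34 averaged 53.3 and 49.0 CPM and Csf1 27.9 and 26.3 CPM, and neither ligand of Csf1r passed between regions after adjustment (edgeR, adjusted p of 0.0841 and 0.107). Tgfb1, which maintains the microglial state, averaged 5.62 and 4.98 CPM with an LFC of 0.19 ± 0.08 (edgeR, adjusted p = 0.0363). Among the lipoproteins that Trem2 binds, Apoe averaged 1118 and 1203 CPM, Clu 580 and 599 CPM, and Apoa1 0.353 and 0.213 CPM.

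With stress, Cx3cl1, Il34 and Csf1 in the vHipp had LFCs of -0.04, -0.04 and -0.05. Tgfb1 (0.24), Clu (0.22) and Apoe (0.22) were higher at an unadjusted p under 0.05, beside 5.31% of all genes, and Apoa1 was at 0.10. None of the 7 passed after adjustment by edgeR, and without mouse 11 only 1 was higher at an unadjusted p under 0.05, beside 4.49% of all genes.

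The markers moved together across libraries beyond the groups. After the group means were removed, the C1q pairs had a Pearson's r of 0.91 to 0.95 over 39 mPFC libraries and 0.92 to 0.93 over 40 vHipp libraries. Over the other 33 pairs the median r was 0.56 in the mPFC (0.11 to 0.86) and 0.66 in the vHipp (0.48 to 0.96), and 0.58 in the vHipp without mouse 11. Csf1r and Cx3cr1 were the closest pair outside C1q, with 0.86 and 0.96. Trem2 with P2ry12 was the loosest in the mPFC, with 0.11. These are descriptions, since the values share library, depth and scaling.

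**Figure D4:**
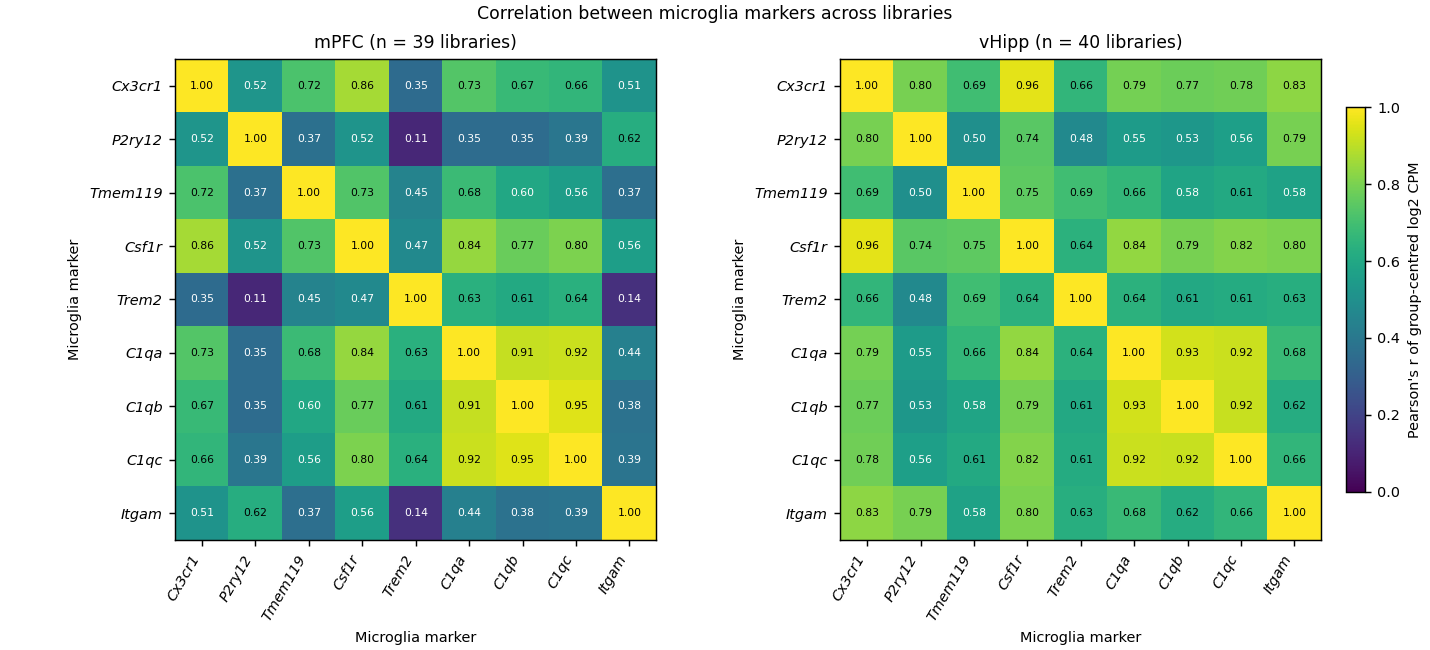
Pearson's r between microglia markers (both axes) across libraries after removal of the group means, for 39 mPFC and 40 vHipp libraries. The C1q pairs have 0.91 to 0.95 in the mPFC, where Trem2 with P2ry12 has 0.11, and in the vHipp Csf1r with Cx3cr1 has 0.96 and the C1q pairs 0.92 to 0.93.

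Among 15175 other genes of at least 1 CPM on average in both regions, the 10 most like the markers included Apoe, Clu, Cldn10, Laptm5, Itgb5, Glul, Tmbim6, Pon2 and Vsir. The likeness of the 10, the mean over both regions of Pearson's r with the mean of the scaled markers, ran from 0.90 to 0.88, where the median of all genes was -0.07. Itgb5 and Laptm5 were on the microglial lists. Apoe, Clu, Cldn10 and Glul are mainly known from astrocytes. The whole astrocyte list followed the markers with r of 0.76 in the mPFC and 0.92 in the vHipp, the neuronal list with -0.78 and -0.60, and the homeostatic microglia list with 0.92 and 0.96.

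Levels in the mPFC also differed between library sets. The geometric mean of the 9 markers averaged 26.4 ± 3.08 CPM in the first set and 20.5 ± 1.56 and 20.5 ± 1.45 CPM in the fourth and the fifth (SD, n = 8). In the vHipp the set means lay between 18.3 and 22.5 CPM.

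The same mouse did not carry a high marker level in both regions for most markers. Over 39 mice, Pearson's r between the regions, after removal of the group means, was highest for P2ry12 (0.55) and C1qb (0.33), and was -0.04 for Csf1r. The median over the 9 markers was 0.16, and over 15188 genes of at least 1 CPM it was 0.29. Without mouse 11 the medians were 0.25 and 0.29.

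**Figure D5:**
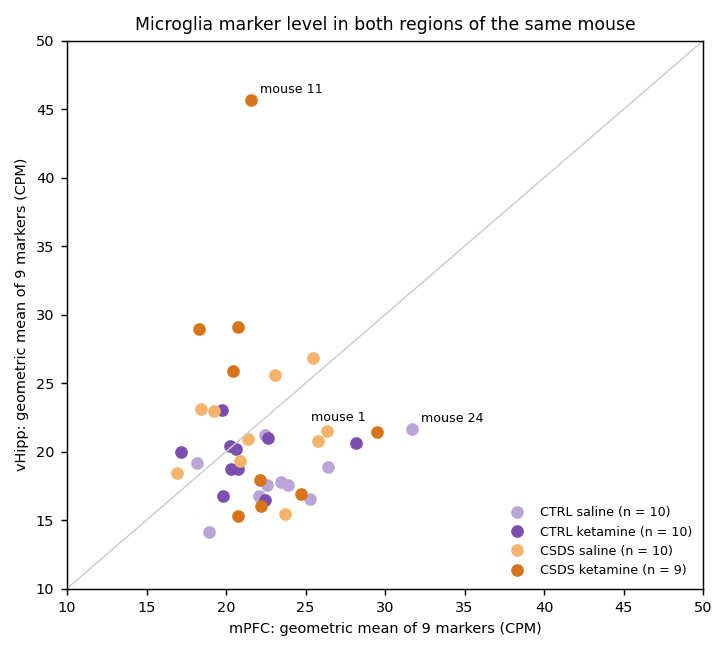
Geometric mean of the 9 microglia markers in the mPFC (x axis) and in the vHipp (y axis) of the same mouse, in CPM, for 39 mice, with the line of equal level. Mouse 11 has 45.6 CPM in the vHipp and 21.6 CPM in the mPFC, and mouse 24 has 21.7 and 31.7 CPM.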

How the data were processed

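RNA of mPFC and vHipp punches was sequenced from an Illumina stranded mRNA library per sample. The authors deposited raw counts per Ensembl gene of the GRCm38 mouse genome. Per the submitters' notes, reads were converted with bcl2fastq 2.20.0.422 from CASAVA, and the aligner and counter are not given in the sources used here. Genes with more than 10 counts in total and detected in more than 3 libraries were kept.

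Groups were compared with edgeR 4.0.16 (TMM factors, quasi-likelihood test, R 4.3.3) over all genes, with Benjamini-Hochberg adjustment at 0.05. Each region was fitted with its 4 groups, and both regions together for the comparisons between them. DESeq2 1.42.0 and limma 3.58.1 (voom, with a random effect for each 4 consecutive mouse numbers) were alternatives, with other factors, filters, covariates and left-out sets. Leaving out single vHipp libraries, or the 2 vHipp libraries with the highest Ttr, was chosen after seeing the data, as was leaving out CTRL saline libraries for the regional difference. The model was tested on simulated counts. Correlations used log2 (CPM + 0.1) after removal of the group means, in Python 3.11.15.

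The members and lists were chosen with earlier results of these data known. Named were the 9 markers, all ligands, the first 2 genes of each other list for its level, at most 4 genes of a list with the largest change past the adjusted threshold, and the 10 genes most like the markers. Some genes that this rule names are not reported here. Both regions come from the same mouse, so the mouse number pairs them. Over 39 mice the same-mouse correlation had a median of 0.16 for the markers and 0.29 for all genes. Mice of a group are separate animals, but those housed together shared the stress condition. Promoters came from RefSeq and were held for 6 of 9 markers.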

Additional observations from a re-analysis of the deposited data

Results flagged for a closer look

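In 13 of 72 groups of a marker, 1 mouse lay far from the others by Dixon's test at the 95% level, where chance gives about 3.6 (about 1 in 20 groups). The markers of a library move together, so these are not independent. All were the highest mouse of their group.

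In the vHipp of CSDS ketamine mice, mouse 11 had 127.1 CPM of Cx3cr1 (nearest mouse 70.9), 96.3 CPM of P2ry12 (41.4), 180.7 CPM of Csf1r (110.7), 14.3 CPM of Itgam (8.92) and 35.2 CPM of C1qc (23.9). In CTRL saline mice, mouse 24 had 53.6 CPM of C1qa (36.2), 30.0 CPM of C1qb (23.1) and 34.8 CPM of C1qc (25.0) in the mPFC, and 25.7 CPM of C1qc (19.2) in the vHipp. In the mPFC of CSDS ketamine mice, mouse 1 had 26.0 CPM of C1qb (19.0), 29.3 CPM of Tmem119 (21.9) and 11.5 CPM of Trem2 (7.80). In the mPFC of CTRL ketamine mice, mouse 23 had 10.4 CPM of Trem2 (7.60).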

How the results depend on the processing

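For every stress, ketamine and interaction comparison, 0 markers passed after adjustment under each alternative that gave an adjusted p. DESeq2 left all 9 markers without one for the mean stress effect in the vHipp. For that effect all 9 markers kept a positive value in each alternative, with 4 to 7 higher at an unadjusted p under 0.05 when single libraries were left out, and 5 without the 2 libraries of highest Ttr. In saline-treated mice the count of 2 became 1 with DESeq2, with RLE factors, with filterByExpr, without library set 1, 4 or 5 and without the libraries of highest Ttr, and 4 with only the 2 groups compared. It ranged from 1 to 5 when single libraries were left out. In ketamine-treated mice the count of 5 became 1 with limma-voom or without set 3, 0 without set 5 and 2 with only the 2 groups compared, and ranged from 0 to 6 when single libraries were left out, with 0 for mouse 11. Trem2 in ketamine-treated mice turned to -0.0404 without set 5.

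For the regional difference in CTRL saline mice, 7 called markers became 4 without set 1, 1 without set 2, and 2 to 8 when single libraries were left out. Averaged over groups, 2 became 0 without set 1 or set 2, 5 without set 3 or set 5, and 4 with the mouse as a replicate block, which pairs the regions. In the main fit of this average, 24.5% of all genes were called higher in the mPFC. The block turned no marker other than Itgam. Without set 1, Cx3cr1 turned to -0.0218 and Tmem119 to -0.0444. Itgam, at -0.0037, turned to 0.0023 with DESeq2, 0.0013 with RLE factors, 0.0081 with no filter, 0.0407 without set 3, 0.0671 without set 5, 0.0055 with the block and 0.0237 without the libraries of highest Ttr. The cause of these changes was not tested, and leaving out a set also left fewer mice.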
